A study of Mus musculus with 4 samples.

Results

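The genes described here encode the proteins of the cytoplasmic ribosome, measured in the first pharyngeal arch of mouse embryos. Members were the rows whose symbol is Rpl or Rps with a number (and at most one of the suffix letters a, l, x or y and a further digit), or Rplp0, Rplp1, Rplp2 or Rpsa, with a mean of at least 10 normalized reads over the 4 libraries. The rule used names and mean level and no difference between genotypes. It found 88 symbols among 52459 rows of the table. Of these, 84 passed the minimum, 49 of the large and 35 of the small subunit, and 16746 rows of all kinds passed it. The 4 that did not pass were Rps12l1 and Rpl10l, with 0 reads in every library, and Rpl39l and Rpl3l, with means of 3.28 and 1.05 normalized reads. The genome annotation calls 4 of the 84 members processed pseudogenes (Rps4l, Rpl6l, Rps3a2 and Rps3a3), so 80 members are protein-coding genes.

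RNA from whole first arches at E9.5 to E9.75 (25 to 27 somites) was sequenced in 2 wild-type libraries and 2 Wnt1-Cre;pMes-Bmp4 libraries, called transgenic below. In these embryos Wnt1-Cre, whose driver is active in the dorsal neural tube and its neural crest, is combined with pMes-Bmp4, a transgene for the growth factor BMP4. No library came from embryos with Wnt1-Cre alone or pMes-Bmp4 alone, so the effects of BMP4, of Cre and of strain background cannot be told apart. The labels do not say that the 2 libraries of a genotype came from separate embryos, so the p-values cover the spread among these 4 samples alone, and part of it may be technical.

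Each ribosome joins a large subunit, which forms peptide bonds and holds the exit tunnel, to a small subunit, which reads the mRNA. The mRNAs of nearly all vertebrate ribosomal proteins begin with a C followed by a run of pyrimidines, the 5′ terminal oligopyrimidine or TOP motif, through which mTOR and the RNA-binding protein LARP1 control their translation and stability. Craniofacial tissue is known to be sensitive to ribosome supply: human mutations in ribosomal protein genes cause Diamond-Blackfan anaemia, which can include facial malformation, and mutations in genes of rRNA synthesis cause Treacher Collins syndrome.

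The sequences below show the transcript starts of 8 members the results turn on: 5 that fell in the transgenic libraries, Rps27l as the paralogue of one of them, and Rpl38 and Rps6, whose differences did not pass the test. Each runs 5′ to 3′ on the gene's own strand from 10 bases before the RefSeq transcript start to the first 18 bases of the transcript (RefSeq, build GRCm38.p6). Capitals mark the longest run of at least 5 C or T in the window.
Rpl28: tctcgtgTCTCTCTTTCCgtctccggcc
Rpl7a: CTCTTCTTTCTTTCTCCagcagccgagc
Rps27: cgctttcgCTCCTTTCCggcggtgacga
Rpl26: ggcaacttacagaaccggaagtcgcgtg
Rps28: cgcgtgcggtctcgcgagagcgaaagtg
Rps27l: CCTCCCCgccgcctctatcccggaagtt
Rpl38: aagcctcgTTCTTTCCCCgttctcttcg
Rps6: gaagtcgggCCTCTTTTTCgtgacgcct
These windows lie at chr7:4792955-4792982 (+) for Rpl28, chr2:26910797-26910824 (+) for Rpl7a, chr3:90213631-90213658 (-) for Rps27, chr11:68901556-68901583 (+) for Rpl26, chr17:33824545-33824572 (-) for Rps28, chr9:66946076-66946103 (+) for Rps27l, chr11:114668570-114668597 (+) for Rpl38 and chr4:86857350-86857377 (-) for Rps6. Runs of pyrimidines are present at 6 of the 8, that of Rps27l wholly before the annotated start. No run of 5 stands in the windows of Rpl26 and Rps28, and the window of Rps28 holds the CG-rich palindrome that the factor BANP is known to bind. RefSeq and GENCODE starts of the members with a promoter entry differed by a median of 34.5 bases, so a missing run says nothing about the mRNA's true start.

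Values are reads per gene divided by a size factor per library, as deposited, and are called normalized reads. Libraries held 29607541 to 47849092 reads. Differences are log2 fold changes, transgenic minus wild-type, on log2(value + 1), from limma with a two-sided test and Benjamini-Hochberg adjustment over all 16746 rows. A gene is said to have risen or fallen only where its adjusted p is below 0.05. Bmp4 itself rose, with a log2 fold change of 1.98 (limma, adjusted p = 0.0211). All 10 markers listed for arch mesenchyme were detected.

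Ribosomal protein mRNAs were lower in the transgenic arches across both subunits. Of the 84 members, 30 fell and none rose, while 5.28% of all rows fell and 2.97% rose. The other 54 did not pass the test in either direction, and at an unadjusted p under 0.05 the number of members was 56, beside 28.8% of all rows. The median log2 fold change of the members was -0.48, against 0.02 over all rows tested. Negative values were found in 78 of 84 members, against 48.7% of all rows. Among the 30 that fell, the log2 fold changes correspond to wild-type levels 1.44 to 2.48 times the transgenic levels, as ratios of geometric means. No member passed the test when either wild-type library was left out, although 29 members without replicate 1 and 35 without replicate 2 had an unadjusted p under 0.05, as did 19.0% and 10.8% of all rows. Without transgenic replicate 1, 47 members fell and 3 rose, while 16.24% of all rows fell and 15.97% rose. Without transgenic replicate 2, 56 members fell and none rose, while 11.36% of all rows fell and 7.17% rose. In edgeR on the recovered reads 32 members fell and 0 rose, beside 5.46% and 2.44% of all rows. In DESeq2 50 fell and 1 rose, beside 9.45% and 7.67% of all rows.

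Library values also separated by genotype for most members. Both transgenic libraries lay below both wild-type libraries for 65 of the 84 members, a pattern found in 29.7% of all rows. They lay above for 3 members (Rpl3, Rpl7l1 and Rpl29), against 30.0% of all rows, and the libraries overlapped for 16. The median member had 38563 and 38098 normalized reads in the wild-type libraries, against 26859 and 27971 in the transgenic ones.

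**Figure D1:**
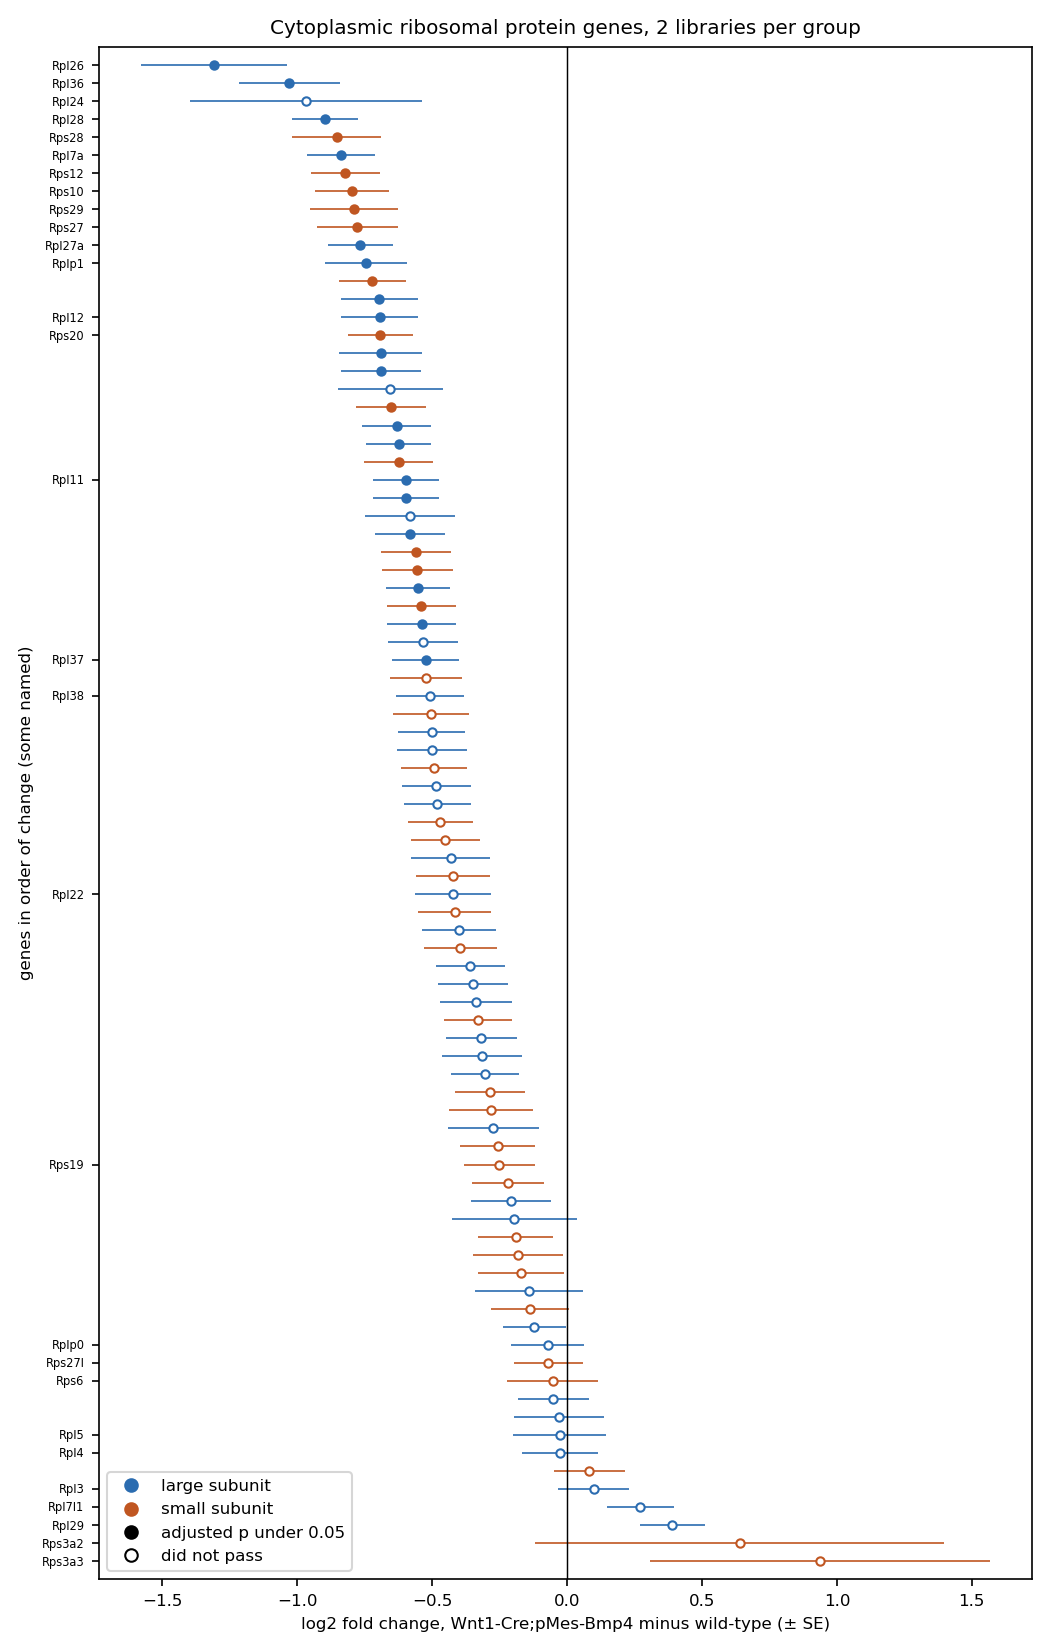
Log2 fold change (horizontal axis, transgenic minus wild-type, with standard error) of each of the 84 members, ordered from the largest fall and named in part, in blue for the large and orange for the small subunit. Filled points passed limma's test at an adjusted p under 0.05: 30 members, all left of 0. The 6 points right of 0 are open.

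Together the 84 genes took 9.997% and 9.729% of all reads in the wild-type libraries and 7.745% and 7.417% in the transgenic libraries. Means were 9.86% ± 0.19 (SD, n = 2) and 7.58% ± 0.232 (SD, n = 2), a ratio of 1.3. The 2 genotypes did not overlap, and the exact permutation test gave a two-sided p of 0.33, the smallest that 2 against 2 libraries allow. Large subunit genes went from 5.6% ± 0.0508 to 4.26% ± 0.201 and small subunit genes from 4.26% ± 0.139 to 3.32% ± 0.0307 (SD, n = 2 each). Embryonic globin and mitochondrial transcripts were also lower: globin genes took 2.28% and 2.12% of wild-type reads and 1.25% of each transgenic library. With globin and mitochondrial reads left out of the total, members took 10.49% and 10.2% of wild-type and 7.948% and 7.633% of transgenic reads.

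**Figure D2:**
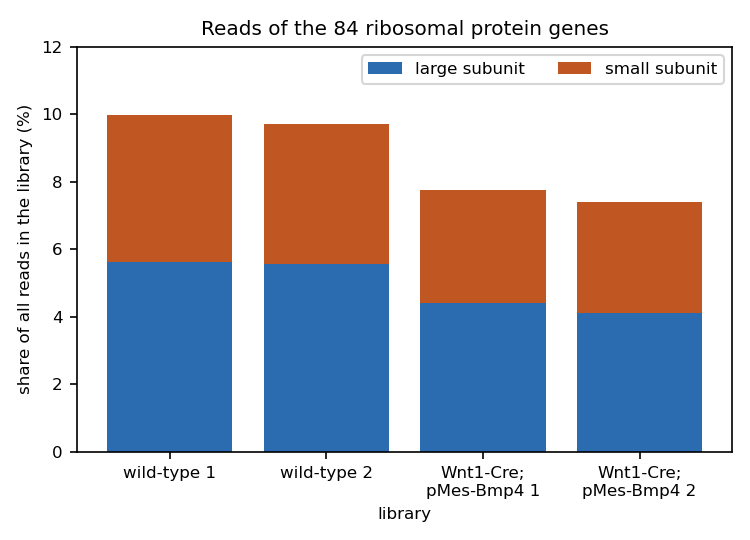
Share of all reads (vertical axis, percent) taken by large subunit (blue) and small subunit (orange) genes in each of the 4 libraries. The stacked bars reach 9.997% and 9.729% in wild-type and 7.745% and 7.417% in transgenic libraries.

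Genes of both subunits were lower. Among large subunit members 18 of 49 fell, with a median log2 fold change of -0.50, and among small subunit members 12 of 35 fell, with a median of -0.42. The difference of the medians was -0.08, and it was 0.03 without transgenic replicate 2. Without the 4 pseudogenes the medians were -0.50 and -0.46, and all 32 small subunit genes had negative values. The ratio of large to small subunit reads was 1.293 and 1.336 in wild-type, against 1.32 and 1.251 in transgenic libraries, so the genotypes overlapped. In contrast, the median log2 level of large minus that of small subunit genes was -0.38 and -0.18 in wild-type and lower, -0.40 and -0.60, in both transgenic libraries. Its genotype difference of -0.22 compares with an SD of 0.142 and 0.143 between the replicates of each group. Exact permutation tests gave two-sided p-values of 0.67 for the ratio and 0.33 for the medians, and 2 against 2 libraries cannot give less than 0.33, so whether the balance of the subunits differs was not resolved.

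The largest fall in the large subunit was that of Rpl26 (ENSMUSG00000060938.14, chr11:68901583-68906989, plus strand), whose protein lies by the exit tunnel and, as a free protein, binds p53 mRNA. Wild-type libraries had 12248 and 11567 normalized reads of it, and transgenic libraries 3487 and 6614. Both transgenic libraries were far below wild-type, and they also differed from each other more than those of most members. The log2 fold change was -1.31 ± 0.27 (SE, n = 2 per group; limma, adjusted p = 0.0357). It corresponds to a wild-type geometric mean 2.48 times the transgenic one.

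Rpl36, a large subunit protein, had 41002 and 43339 normalized reads in wild-type libraries, against 24936 and 17096 in transgenic ones. Its log2 fold change was -1.03 ± 0.19 (SE; limma, adjusted p = 0.0283). Rpl28, a protein of the eukaryotic large subunit with no bacterial counterpart, had 19926 and 20893 against 11466 and 10478. Here the replicates lay close together and the groups far apart, with a log2 fold change of -0.90 ± 0.12 (SE; limma, adjusted p = 0.0211), the smallest adjusted p among the members. Rpl7a, whose sequence above starts with the longest pyrimidine run of the 8, had 22049 and 22508 against 13226 and 11743, a log2 fold change of -0.84 ± 0.12 (SE; limma, adjusted p = 0.0223).

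Among the other large subunit genes that fell were Rpl27a, Rplp1, Rpl13a, Rpl12, Rpl37a, Rpl14, Rpl31, Rpl11, Rpl23, Rpl32, Rpl23a, Rpl15 and Rpl37. Their log2 fold changes ran from -0.77 for Rpl27a to -0.52 for Rpl37, and their adjusted p-values from 0.0233 for Rpl27a to 0.0472 for Rpl37 (limma).

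In the small subunit the largest fall was that of Rps28, a short protein at the mRNA exit. It had 20490 and 20658 normalized reads in wild-type and 13297 and 9747 in transgenic libraries, a log2 fold change of -0.85 ± 0.17 (SE; limma, adjusted p = 0.0322). Rps12 followed with 12478 and 12917 against 7706 and 6687, a log2 fold change of -0.82 ± 0.13 (SE; limma, adjusted p = 0.0233). For both genes the 2 wild-type libraries were nearly equal and both transgenic libraries lay below them. Rps10, Rps29, Rps27, Rps20, Rps21, Rps26, Rps15a and Rps2 were among the others that fell, with log2 fold changes from -0.80 for Rps10 to -0.54 for Rps2.

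Members did not all behave alike. Rpl29, a large subunit protein also known as a heparin-binding surface protein, had 9893 and 10029 normalized reads in wild-type and 12597 and 13531 in transgenic libraries. Both transgenic libraries were higher, with a log2 fold change of 0.39 ± 0.12 (SE), but the difference did not pass limma's test (adjusted p = 0.0835). It did pass in DESeq2 (adjusted p = 0.0265). Rpl7l1, a paralogue of Rpl7 known from pre-ribosomes, had 10518 and 9531 against 12592 and 11589, a log2 fold change of 0.27 ± 0.12 (SE; limma, adjusted p = 0.205).

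Several genes of the ribosome's core stayed near 0. Rpl4, which lines the exit tunnel, had 85388 and 80206 normalized reads in wild-type and 75968 and 86979 in transgenic libraries, a log2 fold change of -0.03 ± 0.14 (SE; limma, adjusted p = 0.92). Rpl3, at the peptidyl transferase centre, had 46877 and 46548 against 47193 and 52942 and a log2 fold change of 0.10 ± 0.13 (SE; limma, adjusted p = 0.654). Rps6, the target of S6 kinase, had 76533 and 66289 against 60290 and 78077, and the genotypes overlapped. Rpl5, Rpl7 and Rpl9 had log2 fold changes of -0.03, -0.03 and -0.05, none past the test.

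**Figure D3:**
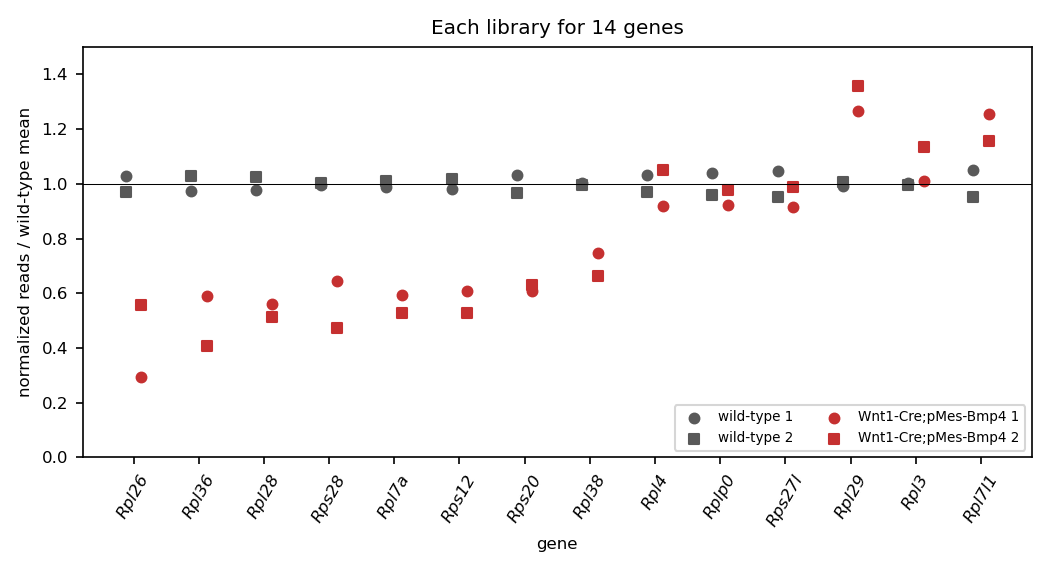
Normalized reads of 14 members in each library, divided by the wild-type mean of the gene (vertical axis, ratio), with circles for replicate 1 and squares for replicate 2. The transgenic points (red) of Rpl26 to Rpl38 lie below both wild-type points (grey), those of Rpl4, Rplp0 and Rps27l overlap them, and those of Rpl29, Rpl3 and Rpl7l1 lie above.

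Members were also grouped by their place in the ribosome, and differences between the changes of single members were not tested. The stalk, which recruits elongation factors, consists of Rplp0 with Rplp1 and Rplp2, next to Rpl12. Rplp1 and Rpl12 fell, by 0.75 and 0.70 on the log2 scale (limma, adjusted p = 0.0356 for each). Rplp2 had a log2 fold change of -0.66 and did not pass (limma, adjusted p = 0.0806). Rplp0, the stalk's base, had 110509 and 101747 normalized reads in wild-type and 97931 and 103789 in transgenic libraries, with a log2 fold change of -0.07 (limma, adjusted p = 0.757).

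Rpl5 and Rpl11 join 5S rRNA in the 5S particle, which can bind Mdm2 when free. Rpl11 had 37283 and 36962 normalized reads in wild-type and 23692 and 25388 in transgenic libraries and fell by 0.60 on the log2 scale (limma, adjusted p = 0.0355). Its partner Rpl5 had 69428 and 62487 against 56016 and 74502, so its transgenic libraries lay on both sides of wild-type. Among 9 genes at the exit tunnel 3 fell (Rpl26, Rpl31 and Rpl23a), with a median log2 fold change of -0.42. Among 9 genes along the mRNA path of the small subunit 3 fell (Rps28, Rps26 and Rps2), with a median of -0.29. Of all members 35.7% fell, with a median of -0.48.

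Of 20 genes mutated in Diamond-Blackfan anaemia, all of them members, 10 fell and none rose. Among all members 35.7% fell, and among all rows 5.28%. The 10 were Rps10, Rps20, Rps28, Rps27, Rpl31, Rpl11, Rpl26, Rps29, Rps26 and Rpl15. All 20 had negative values, as did 78 of the 84 members. Their median was -0.52, beside -0.48 for all members. Rps19, the gene mutated most often in that disease, had 65615 and 59830 normalized reads in wild-type and 54306 and 51017 in transgenic libraries, a log2 fold change of -0.25 ± 0.13 (SE; limma, adjusted p = 0.255). The transgenic libraries of Rps19 were both below wild-type, by less than for the genes that fell.

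Among 8 members with well-known mouse mutants, Rps20 and Rpl27a fell, beside 35.7% of all members. Rps20, with Rps19 known from dark skin mutants, had 33381 and 31266 normalized reads in wild-type and 19686 and 20313 in transgenic libraries, a log2 fold change of -0.69 ± 0.12 (SE; limma, adjusted p = 0.0268). Rpl38, lost in the tail short mutant and known for the translation of Hox mRNAs, had 25168 and 24946 against 18697 and 16583, a log2 fold change of -0.51 ± 0.13 (SE; limma, adjusted p = 0.0518). The libraries of both genes separated by genotype, although Rpl38 missed the threshold. Rps7 (log2 fold change -0.26), Rpl22 (-0.42) and Rps6 (-0.05) did not pass either. Rpl24, changed in the belly spot and tail mutant, had only 133.5 and 97.71 normalized reads in wild-type and 86.39 and 38.8 in transgenic libraries, with a log2 fold change of -0.97 ± 0.43 (SE; limma, adjusted p = 0.189). Another annotated gene, Gm28037, overlaps 71.5% of the exon bases of Rpl24, so reads at this locus may not all have been counted for it.

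Levels per kilobase of the principal transcript spanned a wide range although ribosomal proteins, apart from the stalk, enter the ribosome in equal numbers. The highest wild-type means per kilobase were those of Rpl41 (201220 normalized reads per kb), Rpl13 (161581), Rps29 (152723) and Rpl37a (117532). This order depends on the transcript used: Rpl13 ranked 2 by the principal transcript, 16 by the longest transcript and 6 by the coding sequence. The lowest were those of Rpl24 (170.8), the pseudogenes Rps3a3 (267.4) and Rps3a2 (462.1), Rpl13a (1608) and Rps2 (2612). Transgenic levels of the 4 named as highest ranged from 73321 for Rpl37a to 149359 for Rpl41. How reads that match several places were counted is not given in the sources used here. Sharing of sequence was found at both ends of this range. Of the 100-base windows, 80.1% for Rpl24, 55.2% for Rpl13a, 58.5% for Rps2 and 78.9% for the abundant Rpl13 occur exactly in transcripts of other genes. Genes that overlap a member at the same place count among these other genes. Such genes cover 71.5% of the exon bases of Rpl24 and 59.3% of those of Rpl13a.

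Such sharing is common in this family, which has many processed pseudogenes. Over the 84 members the median share of windows found in other annotated transcripts was 35.3%, 33 members shared at least 50%, and 76 shared with a pseudogene. At Rps27 98.4% of windows were shared, with the coding copy Rps27rt among others. No window was shared at 5 members, among them Rpl22, Rps21 and Rps27l. Among 26 members with under 25% shared and no overlap with another gene's exons, 9 fell and none rose, with a median of -0.45. That is 34.6% of these 26, beside 35.7% of all members. Separate rows named as ribosomal protein pseudogenes, 276 in all, took 0.549% and 0.518% of wild-type reads and 0.444% and 0.575% of transgenic reads, with no separation by genotype.

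The 2 pseudogene rows Rps3a2 and Rps3a3 had the highest log2 fold changes of all members, 0.64 and 0.94, and neither passed (limma, adjusted p = 0.609 and 0.365). Rps3a2 had 373.1 and 359 normalized reads in wild-type and 214.4 and 1516 in transgenic libraries. Rps3a3 had 232.9 and 192.3 against 184.5 and 892.4. In both rows only transgenic replicate 2 was high. Without that library the log2 fold changes were -0.77 and -0.20. The parent gene Rps3a1 had a log2 fold change of -0.18.

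Paralogue pairs allow a comparison within a family. Rps27 fell from 22021 and 21962 to 14565 and 11300 normalized reads (log2 fold change -0.78 ± 0.15, SE; limma, adjusted p = 0.0322). Its paralogue Rps27l, a p53 target in other cells, had 38399 and 34892 in wild-type and 33531 and 36277 in transgenic libraries (log2 fold change -0.07; limma, adjusted p = 0.754). Rps27l as a percentage of Rps27 was 174.4 and 158.9 in wild-type and 230.2 and 321 in transgenic libraries, without overlap (exact permutation test, two-sided p = 0.33, the smallest these 4 libraries allow). Because nearly all of Rps27 is shared with another gene and none of Rps27l is, the height of that percentage depends on how shared reads were counted. It is not corrected for length either. Per kilobase of the principal transcript, wild-type means were 73437 for Rps27l and 63745 for Rps27.

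Rpl22, which binds RNA and also has roles outside the ribosome, and its paralogue Rpl22l1 had log2 fold changes of -0.42 and -0.27. Normalized reads of Rpl22l1 were 50.31% and 50.17% of those of Rpl22 in wild-type, against 52.55% and 58.98% in transgenic libraries. Those of Rpl7l1 were 15.93% and 16.24% of those of Rpl7 in wild-type, against 23.63% and 16.63% in transgenic libraries. These percentages are not corrected for transcript length, so they do not compare levels between partners. Per kilobase of the principal transcript, wild-type means were 11493 for Rpl22l1 and 6157 for Rpl22. They were 3847 for Rpl7l1 and 53610 for Rpl7. The other tested paralogues, Rpl39 (log2 fold change -0.32), Rpl10 (-0.48), Rps4x (-0.17), Rps4l (0.08) and Rpl36a (-0.30), did not pass.

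Ribosomal components whose symbols fall outside the rule had negative values as well. Rps27rt, with 2276 and 2206 normalized reads in wild-type and 1346 and 1457 in transgenic libraries, fell (log2 fold change -0.68; limma, adjusted p = 0.0328). Because 98.4% of the windows of Rps27 are shared, with Rps27rt among others, reads of Rps27rt and Rps27 may not be separate. Fau, which encodes a small subunit protein made as a fusion to a ubiquitin-like protein, had a log2 fold change of -0.57 and did not pass (limma, adjusted p = 0.0612). Rack1, a scaffold on the small subunit, had -0.21 and Rpl36al -0.49, and neither passed.

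Change varied with the size of the encoded protein. Among the 80 coding members, the log2 fold change was less negative for longer proteins, with a Spearman correlation across genes of 0.342 (Pearson 0.415). These genes share libraries and are not independent replicates. In the 9 members of up to 100 residues the median was -0.62 and 6 fell (Rps28, Rps29, Rps21, Rps27, Rpl37a and Rpl37). In the 12 members of more than 250 residues the median was -0.18 and 2 fell (Rpl7a and Rps2). The longest, Rpl3 and Rpl4, were among those near 0. Other coding genes with a mean of at least 50 had medians of 0.08 and 0.20 in the same bins, so they too were higher in the longer bin, but above 0. Of these other genes 1.05% fell in the short bin and 3.02% in the long bin. Among members, transgenic replicate 2 minus replicate 1 had a median of -0.20 in the short bin and 0.17 in the long bin. The trend with size thus also runs between the transgenic replicates, and its dependence on 1 library was not tested.

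**Figure D4:**
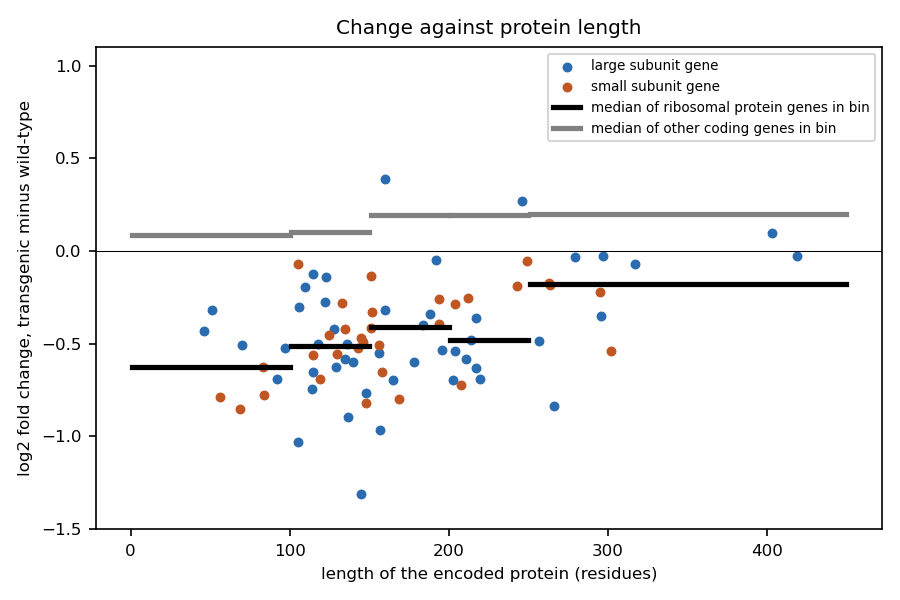
Log2 fold change (vertical axis, transgenic minus wild-type) of the 80 coding members against the length of the encoded protein in residues. Black bars give the median of the members in each of 5 length bins, from -0.62 (up to 100 residues) to -0.18 (over 250 residues), and grey bars that of other coding genes in the same bins, which lie above 0.

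Over 10970 other coding genes of any length, far longer ones than the members included, the Spearman correlation of the log2 fold change with coding length was -0.371. After the trend with transcript length was subtracted from each library, the median of the members moved further from 0, to -0.63, while fewer genes of any kind passed. In that fit 7 members fell, among them Rpl26, Rpl28, Rpl7a and Rps12, and none rose, against 0.931% of rows that fell and 0.61% that rose. With GC content subtracted too, 40 members fell, against 4.6% of rows, and Rpl29 rose, with a log2 fold change of 0.52 (limma, adjusted p = 0.0361). The replicates of both genotypes differed along the same axis. Across the 80 coding members, transgenic replicate 2 minus replicate 1 had a Spearman correlation of 0.614 with the log2 fold change and of -0.472 with GC content. Wild-type replicate 2 minus replicate 1 had correlations of -0.553 and 0.494. The log2 fold change contains all 4 libraries, so its correlations with these differences are not independent of it. The GC trend was not confined to the members. Over the 10970 other coding genes the Spearman correlation with GC content was -0.549 for the transgenic and 0.195 for the wild-type difference.

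Promoter entries were found in the RefSeq table for 60 of the 84 members. A C at the annotated start with 4 or more C or T after it was present in 20% of these members and in 2.51% of 32851 promoters of all genes. Allowing the start to lie within 20 bases and asking for 5 or more C or T after the C, the motif was found in 65% of members and 32.5% of promoters. Of the 39 members with it 17 fell, with a median log2 fold change of -0.53, and of the 21 without it 4 fell, with a median of -0.30. This difference between members was not tested. RefSeq and GENCODE starts differed by a median of 34.5 bases, more than the 20 searched, so the 21 may still carry a TOP motif. On either strand the BANP palindrome was found in 10% of members and 0.466% of promoters, AAGATGGC in 8.33% and 2.75%, CCGGAAG in 40% and 8.86%, and TATAAA in 10% and 13.6%. The last letters of CCGGAAG can be the first of AAGATGGC, so those matches may overlap. For CCGGAAG the medians with and without the motif were -0.51 and -0.48. They were -0.53 and -0.49 for the BANP palindrome, -0.56 and -0.48 for AAGATGGC and -0.31 and -0.50 for TATAAA.

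Other mRNAs known to carry a TOP motif were mixed: of 23 tested, 4 fell and 1 rose, with a median of -0.21. Pabpc1, the cytoplasmic poly(A)-binding protein, had 20231 and 23511 normalized reads in wild-type and 6018 and 6015 in transgenic libraries, a log2 fold change of -1.86 ± 0.13 (SE; limma, adjusted p = 0.0182). This fall was larger than that of any ribosomal protein gene. The elongation factor Eef2 fell by 0.78 and the initiation factor Eif4b by 0.59 on the log2 scale (limma, adjusted p = 0.0264 and 0.0343). Tpt1 was the fourth to fall (log2 fold change -0.60). Eif3l, a subunit of initiation factor eIF3, rose, with a log2 fold change of 0.85 (limma, adjusted p = 0.027).

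Nuclear genes for the mitochondrial ribosome had a median log2 fold change of 0.10, and 17 of 76 had negative values. None of the 76 passed in limma or edgeR, 10 had an unadjusted p under 0.05 in limma, and in DESeq2 2 rose and none fell. Those with the smallest p were Mrpl3 (log2 fold change 0.48; limma, adjusted p = 0.0553) and Mrps30 (0.52; adjusted p = 0.0786). Of 75 rows of oxidative phosphorylation, 3 of them named as pseudogenes, 4 rose and none fell in limma, with a median of -0.02. In edgeR 2 rose and none fell, and in DESeq2 6 rose and 3 fell. After length correction none passed, in a fit where 0.61% of all rows rose and 0.931% fell. At an unadjusted p under 0.05 in limma there were 13, of which 6 were lower. Atp5b and Atp5a1, the subunits of the ATP synthase head, were among the 4 that rose in limma, with log2 fold changes of 0.84 and 0.50.

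**Figure D5:**
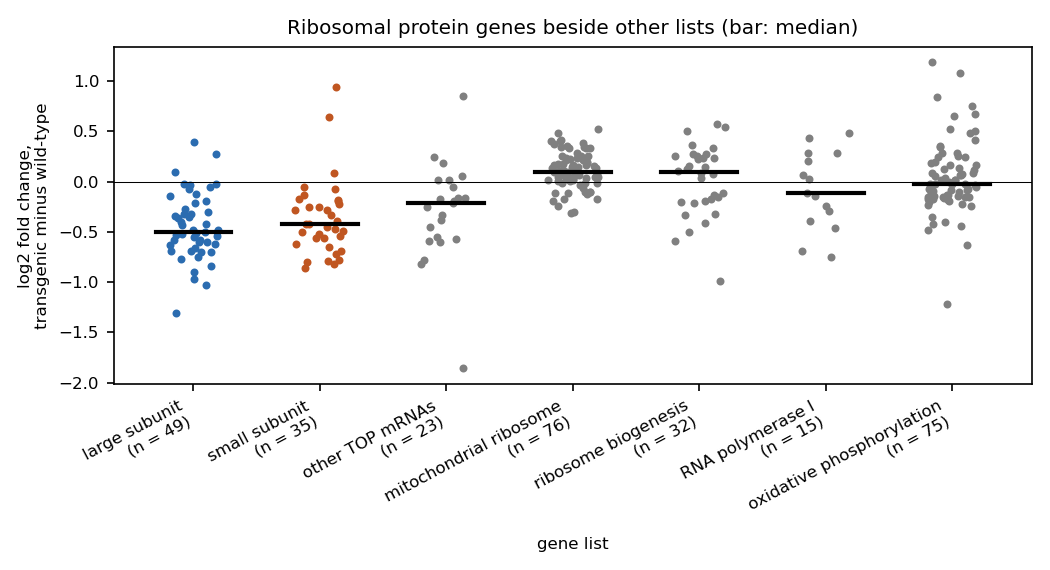
Log2 fold change (vertical axis, transgenic minus wild-type) of each gene in 7 lists, with the median as a bar. Medians are -0.50 and -0.42 for the large and small subunit, -0.21 for other TOP mRNAs and 0.10 for the mitochondrial ribosome and for ribosome biogenesis.

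Genes that build ribosomes changed in part. Of 32 biogenesis factors 3 fell (Utp20, Ncl and Nolc1) and none rose, with a median of 0.10. In DESeq2 3 rose and 3 fell. Nucleolin (Ncl), which acts in rRNA transcription and processing, had 98781 and 99584 normalized reads in wild-type and 63001 and 68796 in transgenic libraries, a log2 fold change of -0.59 (limma, adjusted p = 0.0425). Among 15 genes of RNA polymerase I and its factors, Polr1a, the largest subunit, fell (log2 fold change -0.74; limma, adjusted p = 0.0351). Tcof1, the Treacher Collins gene, had 2664 and 3520 against 2183 and 1647 normalized reads and a log2 fold change of -0.69 that did not pass (limma, adjusted p = 0.0702).

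Of 15 genes of mTOR signalling and the LARP family, 5 fell and none rose. The falls with the smallest p were those of Eif4ebp2 (log2 fold change -0.84), Rptor (-1.05), Mtor (-0.87) and Larp1 (-0.99). Values were negative for 11 of the 15, and the highest was 1.37. At an unadjusted p under 0.05 in limma there were 10, of which 6 were lower, and in DESeq2 2 rose and 6 fell. Larp1, the TOP-binding protein, had 4323 and 6074 normalized reads in wild-type and 2874 and 2321 in transgenic libraries (limma, adjusted p = 0.0328). These transcripts are long, with a median of 5720 bases in the list. None of the 15 passed after the length trend was subtracted, but few rows of any kind did (0.931% fell and 0.61% rose). The median of the list was -0.24 before and -0.13 after that correction. Of 10 transcription factors tied to ribosomal protein genes 4 fell: Sp1 (-1.18), Yy1 (-1.15), Mnt (-1.43) and Myc (-0.74). Myc, a general activator of ribosome production, had 1999 and 2762 normalized reads in wild-type and 1425 and 1382 in transgenic libraries (limma, adjusted p = 0.0484). None of the 10 passed after length correction, where few rows of any kind did, and their median went from -0.31 to -0.46. These counts therefore do not show whether the falls in either list follow transcript length.

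Genes of the p53 pathway, whose targets respond where ribosome assembly is disturbed, did not move together. The list holds Trp53 itself and its regulator Mdm4 beside p53 targets. Of 14 tested, Ccng1 rose, with a log2 fold change of 0.62 (limma, adjusted p = 0.0498; it did not pass in edgeR), and Zmat3 fell, with a log2 fold change of -1.94 (limma, adjusted p = 0.0211). The median of the list was 0.09.

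Markers of other cell types differed between the genotypes as well. In bulk RNA, fewer cells of a type and less RNA per cell cannot be told apart. Of 9 erythroid genes tested 3 fell (Hbb-y, Slc4a1 and Hba-x) and none rose. Their summed level was 613958 to 674758 normalized reads in wild-type and 341292 to 381298 in transgenic libraries, and no detected gene of the list was at 0 in all libraries. Of 9 epithelial genes 2 rose (Krt18 and Krt14), with sums of 19105 to 25401 in wild-type and 32002 to 34591 in transgenic libraries. Among the 8 endothelial, 6 muscle, 8 neural, 6 heart and 4 myeloid genes tested, none passed in limma or edgeR. At an unadjusted p under 0.05 in limma there were 4 endothelial, 3 muscle and 1 neural genes, and in DESeq2 1 endothelial and 2 muscle genes rose and 1 muscle gene fell. Of 10 mesenchyme genes 2 rose and 1 fell. The part of cell composition, and that of the length trend, in the lower ribosomal protein levels was not tested.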

How the data were processed

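PolyA-selected RNA was sequenced in 2 wild-type and 2 Wnt1-Cre;pMes-Bmp4 libraries, per the labels' protocols. The deposited signal is a read count per gene divided by a size factor per library, per the file headers. Each column divided by its lowest value above 0 gave whole numbers (within 0.01) for 100% of the values above 0. Per the submitters' processing notes, fastp 0.21.0 and build mm10 were used. Aligner, annotation, strand setting and the treatment of reads matching several places are not given here. No column was left unused.

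The test was limma 3.58.1 in R 4.3.3 (trend in the prior variance) on log2(value + 1) for rows with a mean of at least 10, two-sided, Benjamini-Hochberg, threshold 0.05, with 2 residual and 5.26 prior degrees of freedom. It was checked on simulated data. Fold changes understate those of low genes. Alternatives included edgeR 4.0.16 and DESeq2 1.42.0 on the recovered reads (edgeR called 409 rows higher and 915 lower), other pseudocounts (0.5, 5), filters, scalings, priors, length and GC splines, a replicate block and leaving out each library. 

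Lengths, gene types and shared windows came from GENCODE M21 transcripts. No genome was used, so copies outside annotated transcripts were not counted. Windows shared with a gene that overlaps a member at the same place were counted as shared. Protein length is that of the annotated coding sequence.

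The named genes were all members past the threshold, the extremes by change and by level per length, the paralogues, genes outside the rule and mouse mutants, and up to 4 genes past the threshold (or the 2 with the smallest p) of each other list. Members near 0, Rplp0, Rplp2, Rps19, Rps3a1, Rpl5, Tpt1 and Bmp4 were named after their values were seen. Some genes that these rules select are not reported here. Members and lists were chosen with earlier results of these data known.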

Additional observations from a re-analysis of the deposited data

How the results depend on the processing

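All 30 genes that fell kept a negative log2 fold change under every alternative run. The count of members that fell (30) was 0 in limma without the variance trend (42 at an unadjusted p under 0.05), 50 in DESeq2, 7 after length correction and 9 among the members with little shared sequence, a set chosen after seeing the data. Leaving out 1 library gave 0 to 56. Members that rose (0) were 1 in DESeq2, 1 with length and GC correction (Rpl29 in both) and 0 to 3 with 1 library left out, the 3 being Rpl29, Rps3a2 and Rps3a3 without transgenic replicate 1. Among all genes the calls (1382) were 0 without the trend, 2866 in DESeq2, 250 after length correction and 0 to 5394 with 1 library left out. The cause of these shifts was not tested. With 1 library left out, the lone sample is assumed to vary like the other group.

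The median of the members (-0.48) was -0.42 under quantile scaling, -0.63 after length correction, -0.65 with GC content added and -0.49 to -0.43 with 1 library left out. The large minus small subunit median was -0.14 to 0.0339 with 1 library left out. The labels do not say that replicate numbers pair libraries. The deviations of same-numbered libraries had a correlation of -0.147 over 16746 genes. With the replicate block 708 genes and 9 members passed.

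Signs of members near 0 were not stable. With 1 library left out, values ranged from -0.49 to 0.10 for Rpl35a, -0.37 to 0.0023 for Rps3a1, -0.36 to 0.0135 for Rps4x, -0.44 to 0.16 for Rpl35, -0.24 to 0.13 for Rps6, -0.13 to 0.0286 for Rpl9, -0.22 to 0.16 for Rpl7, -0.23 to 0.18 for Rpl5, -0.12 to 0.0718 for Rpl4, -0.0303 to 0.19 for Rps4l, -0.77 to 2.05 for Rps3a2 and -0.20 to 2.07 for Rps3a3. Under quantile scaling Rplp0 was 0.13, Rps27l 0.0274, Rps6 0.0012, Rpl7 0.0565, Rpl5 0.0686, Rpl4 0.0471 and Rps4l -0.0400. After length correction Rps4l was -0.0841 and Rpl3 -0.12, and Rpl3 was -0.12 with GC content added.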
